A study of Mus musculus with 6 samples.

Results

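Macrophages rich in transcripts of Arg1 (arginase 1) and Spp1 (osteopontin) were taken from single-cell RNA libraries of mouse hearts, and they numbered 649 of the 34940 deposited cells. They were selected on measured transcripts. A cell first had to be kept, with at least 1000 UMIs (unique transcript tags), at least 200 genes and at most 20% mitochondrial UMIs. It then had to pass a macrophage gate, with 5 or more UMIs of Csf1r, Cd68, Fcgr1 and Lyz2 together, S100a8 and S100a9 under 1% of its UMIs, and at most 2 UMIs of Col1a2 and Cdh5. Of 9578 cells inside this gate, those described here held 20 or more UMIs of Arg1 and Spp1 together. They also held fewer than 4 of Trem2 and Gpnmb, fewer than 5 of Ccl24, Saa3 and Ednrb, at most 3 of the resident genes Lyve1, Folr2, Timd4 and Cd163, and fewer than 10 of Ifit1, Ifit2, Ifit3 and Rsad2. All of these genes are therefore inputs and not findings, and every contrast of the selected cells with other cells is given as a description.

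The 6 libraries hold live non-cardiomyocytes of the ventricles, each from the pooled hearts of 4 male mice aged 8 to 12 weeks. Wild-type (WT) mice were of strain C57BL/6JRj, and knockout (KO) mice of strain B6.Cg-Trpm4tm1.2-PG, which lacks the calcium-activated cation channel TRPM4. Each genotype was sampled 24 h after a sham operation, 24 h after ligation of the LAD, the coronary artery that feeds the front wall of the left ventricle, and 72 h after it. Digestion with thermolysin and papain and sieving removed most cardiomyocytes, and live cells were sorted on Calcein-AM and DAPI. There was 1 library per group, so no test between groups was possible and the intervals below cover counting error only. Surgery reached every mouse, so the sham hearts are wounded hearts and not untouched ones.

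Arginase 1 splits arginine into ornithine and urea, and so competes with nitric oxide synthase for arginine and feeds polyamine and proline synthesis. Osteopontin is a secreted matrix protein that binds integrins and CD44. Macrophages that carry both transcripts gather in ischaemic and wounded tissue, where low oxygen stabilises hypoxia-inducible factor (HIF), which binds short DNA sites holding a core of A or G followed by CGTG. In an infarct, such cells derive largely from blood monocytes that enter within the first days, and they release chemokines that draw in further myeloid cells.

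The selected cells were spread over all 6 libraries: 84 in WT sham, 45 in KO sham, 83 in WT ligation 24 h, 230 in KO ligation 24 h, 78 in WT ligation 72 h and 129 in KO ligation 72 h. The working name of these cells, hypoxic infarct macrophages, was checked against the libraries. Of the 649 cells, the 84 and 45 from sham hearts come from animals with no ligated artery. In the sham members Hilpda, a HIF target that slows fat breakdown, stood at 126 (WT) and 92.2 (KO) CPM (UMIs of a gene scaled to a common total, by the usual counts-per-million rule), below the 217 CPM of the Arg1 Spp1-low cells of WT ligation 24 h. The summed list of 20 hypoxia genes gave another order, with 2336 (WT) and 2270 (KO) CPM in the sham members and 2213 CPM in those low cells. Since the sham members come from hearts without an infarct, the cells are called Arg1 Spp1 macrophages here, by their rule. In each library T and NK cell markers summed to at most 6.06 CPM in the members, dendritic cell markers to at most 18.2 CPM and cardiomyocyte markers to at most 43.9 CPM, against 10623 to 18260 CPM for 8 macrophage markers. Some other marker lists were higher in single libraries. Smooth muscle and pericyte markers summed to 1050 CPM in KO sham, where 2 of 45 members held 3 or more such UMIs, and to 8.69 to 71.2 CPM in the other 5. Platelet markers, mostly Ppbp, summed to 28.2 to 315 CPM, with the highest value in WT ligation 24 h. Fibroblast markers summed to 168 CPM in KO ligation 72 h, where 10 members held 3 or more such UMIs, and to 7.25 to 50.4 CPM in the others.

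2 facts of the libraries touch many values below. The KO ligation 72 h library was shallow: its members had a median of 3531 UMIs, against 8080 to 11844 in the other 5 libraries, and 73 of its 129 members reached 3000 UMIs. Neutrophil transcripts were present in the members after ligation, at 1299 CPM (WT 24 h), 689 (KO 24 h), 228 (WT 72 h) and 817 (KO 72 h), for the sum of 8 markers that includes S100a8 and S100a9, against 155 (WT) and 149 (KO) in sham. At 24 h after ligation 59.0% of WT and 73.0% of KO members held 3 or more such UMIs. The Arg1 Spp1-low cells of the same libraries carried 621 (WT) and 818 (KO) CPM of these markers, so the sum was higher in the members than in those cells in WT and lower in KO. The part of this RNA in each result was not tested, and values without such cells stand beside some of the lists and genes below. The 649 members had 649 different barcodes, and no member barcode was also a member in another library. Trpm4 itself gave 3, 2, 1, 16, 0 and 1 UMIs in the members in the library order above. With so few counts, 16 of them in a KO library, the members give no check of the genotype labels.

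The promoters of 4 leading genes are shown because the gene groups described below include many textbook HIF targets, and 1 chemokine gene with an NF-kB consensus. Each window is the 250 bases before the RefSeq start on GRCm38.p6, read 5′ to 3′ on the gene's strand, with capitals for a HIF core (ACGTG or GCGTG on either strand) in the first 3 and for the NF-kB consensus in Cxcl3, whose window also holds ACGTG on both strands, left in lower case. The RefSeq start of Ero1l lies 199 bases inside the gene as annotated by GENCODE M21. Its 3 marked cores lie between these starts.
Egln3 (chr12:54203875-54204124, minus strand; an oxygen-sensing prolyl hydroxylase that marks HIF for destruction): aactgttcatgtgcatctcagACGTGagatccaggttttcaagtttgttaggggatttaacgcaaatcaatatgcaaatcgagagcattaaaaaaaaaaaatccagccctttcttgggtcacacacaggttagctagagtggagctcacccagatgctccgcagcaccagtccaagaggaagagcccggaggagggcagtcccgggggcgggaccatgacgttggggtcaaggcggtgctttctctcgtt
Ero1l (chr14:45318573-45318822, minus strand; an oxidase of protein folding in the endoplasmic reticulum): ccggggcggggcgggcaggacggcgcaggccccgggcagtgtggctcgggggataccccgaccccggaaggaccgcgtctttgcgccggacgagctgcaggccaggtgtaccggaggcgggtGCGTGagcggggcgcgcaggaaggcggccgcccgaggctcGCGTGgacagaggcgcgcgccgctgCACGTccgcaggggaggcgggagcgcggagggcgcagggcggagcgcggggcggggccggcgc
F10 (chr8:13037058-13037307, plus strand; coagulation factor X): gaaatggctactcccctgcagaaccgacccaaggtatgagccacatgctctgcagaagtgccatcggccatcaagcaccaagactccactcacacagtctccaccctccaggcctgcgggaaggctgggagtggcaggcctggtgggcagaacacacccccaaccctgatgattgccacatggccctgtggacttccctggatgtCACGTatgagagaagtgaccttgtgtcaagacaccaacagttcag
Cxcl3 (chr5:90785851-90786100, plus strand; a chemokine that attracts neutrophils): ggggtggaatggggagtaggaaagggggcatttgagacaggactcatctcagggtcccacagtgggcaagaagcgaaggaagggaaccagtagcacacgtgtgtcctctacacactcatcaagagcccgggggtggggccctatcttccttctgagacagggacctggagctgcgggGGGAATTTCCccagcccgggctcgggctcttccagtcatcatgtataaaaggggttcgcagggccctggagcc

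The HIF core was common. It was present in the windows of 17 of 18 matched genes of the hypoxia list (94.4%) and 14 of 16 of the glycolysis list (87.5%), against 41.5% of 27025 genes with a promoter in the table. By promoter, where a gene can have several starts, the shares were 75% of 28, 79.2% of 24 and 38.6% of 32851. The HIF core was also in the windows of 6 of 9 CXC chemokine genes (66.7%). The NF-kB consensus was found in 4 of those 9 and in 5.67% of all genes. Of 7 matched CC chemokine genes 1 held a HIF core and 1 the NF-kB consensus (14.3% each). Of 10 matched oxidative phosphorylation genes 5 held a HIF core (50%) and 1 the NF-kB consensus. Hilpda and Spp1 have 2 RefSeq starts each. In both genes the window of the start nearest the GENCODE start holds neither HIF core. The counts by gene took any start of a gene. These are matches of letters in a short window and no measurement of binding. The hypoxia and glycolysis lists include many textbook HIF targets, so their high shares can follow from how the lists were chosen. They describe the lists and not the cells.

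Among gated macrophages the share of Arg1 Spp1 macrophages was highest 24 h after ligation in both genotypes, and among all kept cells the order was less clear. Of all kept cells they made up 1.58% (95% exact binomial interval 1.26 to 1.95) in WT sham, 0.772% (0.564 to 1.03) in KO sham, 2.59% (2.07 to 3.20) in WT ligation 24 h, 3.42% (2.99 to 3.88) in KO ligation 24 h, 1.77% (1.40 to 2.2) in WT ligation 72 h and 2.86% (2.39 to 3.38) in KO ligation 72 h. On this base KO at 72 h lay above WT at 24 h, and within KO the 72 h share was lower than that at 24 h by 0.560 points (-1.20 to 0.106 as a signed difference, an interval that includes 0). Among gated macrophages the shares were 7.10%, 5.15%, 11.7%, 13.9%, 3.11% and 4.87% in the same order. Within WT the gated share was 4.64 points higher at ligation 24 h than in sham (1.94 to 7.54) and 8.63 points lower at 72 h than at 24 h (-11.3 to -6.33 as a signed difference). In KO the corresponding differences were 8.73 points (6.43 to 10.9) and -9.02 points (-10.9 to -7.21). KO exceeded WT among gated macrophages by 2.15 points at 24 h (-0.879 to 4.94, an interval that includes 0) and by 1.76 points at 72 h (0.688 to 2.83). In sham KO was lower than WT by 1.95 points (-4.00 to 0.191 as a signed difference). These intervals treat cells as independent and hold no spread between mice.

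The order of the genotypes at 72 h changed when cells were thinned. When each kept cell of 3000 or more UMIs was thinned to 3000 and the rule applied unchanged, which loosens its upper limits as well as tightening its minimum, WT had 11.2% of gated cells as members at 72 h and KO 9.77%, the opposite order. In cells of 3000 or more UMIs without thinning KO stayed above WT, with 73 of 1141 gated cells as members against 70 of 2399. The part of depth alone was not tested. At 24 h after ligation the thinned shares, 16.1% in WT and 22.5% in KO, kept the order of the full data, as did those in sham at 13.8% and 11.1%. With a minimum of 0.2% of a cell's UMIs in place of 20 UMIs, KO ligation 72 h had 25.8%, above the 11.7% (WT) and 14.1% (KO) at 24 h, so that the order of the times in KO also rests on the form of the minimum. Over all libraries 87 cells sat just inside the 20 UMIs, with 20 to 24 UMIs of Arg1 and Spp1, and 148 cells that met the other conditions sat just outside, with 15 to 19, and the KO ligation 72 h library held 38 and 82 of them.

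**Figure D1:**
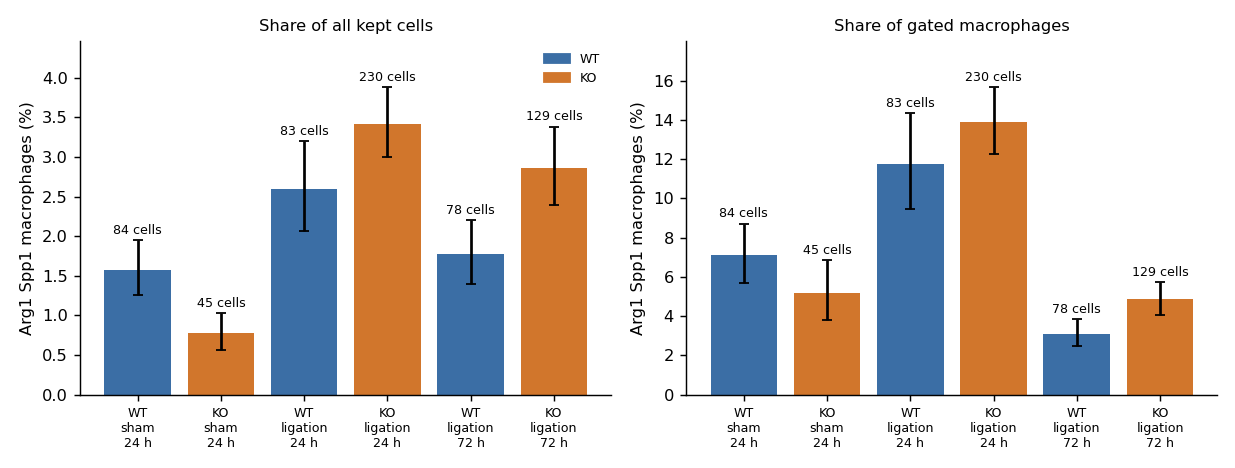
Share of Arg1 Spp1 macrophages in each of the 6 libraries (x axis), in percent of all kept cells and in percent of gated macrophages (y axes), with 95% exact binomial intervals as error bars. The share of gated macrophages is highest in the 24 h ligation libraries (11.7% WT, 13.9% KO) and lowest at 72 h in WT (3.11%).

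Carrying Arg1 and Spp1 was not particular to these cells. Of the 9578 gated macrophages 3679 (38.4%) held 20 or more UMIs of the 2 genes, and 17.6% of those were members. Of the 3679, 2003 failed on Trem2 and Gpnmb, 1715 on Ccl24, Saa3 and Ednrb, 572 on the resident genes and 127 on the interferon genes, with overlap. In WT ligation 24 h Arg1 stood at 4513 CPM in the members, 3718 in macrophages with 4 or more UMIs of Trem2 and Gpnmb and 4130 in those with 5 or more of Ccl24, Saa3 and Ednrb. The members are thus the Arg1 Spp1 cells that lack the other programmes of the rule.

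Arg1 (chr10:24915221-24927484, minus strand, GRCm38, GENCODE M21) was at 2114 CPM in the members of WT sham, 2323 in KO sham, 4513 in WT ligation 24 h, 4752 in KO ligation 24 h, 2095 in WT ligation 72 h and 2663 in KO ligation 72 h. Both 24 h ligation libraries were the high ones. Spp1 (chr5:104435118-104441050, plus strand) did not follow that order: it was at 6030, 9353, 5028, 8150, 6115 and 6844 CPM in the same order. Among members 85.7% to 97.0% had an Arg1 UMI, against 0% to 4.51% of endothelial cells of the same libraries, which show the level that free RNA can give, and 88.0% to 94.6% had a Spp1 UMI, against 6.24% to 19%.

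UMIs of a 3′ library do not scale with transcript length, so the 2 genes can be set side by side within a cell. Most members held UMIs of both, but often in unequal amounts. In WT ligation 24 h 37.3% of members held at least 4 times as many Arg1 as Spp1 UMIs and 26.5% the reverse, and in KO ligation 24 h these shares were 27.0% and 25.2%. In sham the Arg1-dominant share was 11.9% (WT) and 17.8% (KO) and the Spp1-dominant share 46.4% and 48.9%, and at 72 h they were 21.8% and 50% in WT and 12.4% and 62.8% in KO. Over all gated macrophages of the ligation 24 h libraries, log CPM of the 2 genes correlated across cells with r of 0.537 (WT) and 0.646 (KO). Within the members r was -0.284 and -0.0818, a sign that the minimum on their sum favours, since a cell low in 1 gene had to be high in the other. The gated cells that share a library and differ in depth are not independent, and these r are descriptions. By the same measure the genes whose log CPM was most like that of Arg1 and Spp1 together were Fn1 (0.698) and Ctsl (0.674) in WT ligation 24 h, Ctsl (0.692) and Ctsd (0.669) in KO ligation 24 h, Ctsl (0.678) and Ctsd (0.668) in WT ligation 72 h, and Pf4 (0.512) and Ctsd (0.472) in KO ligation 72 h.

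**Figure D2:**
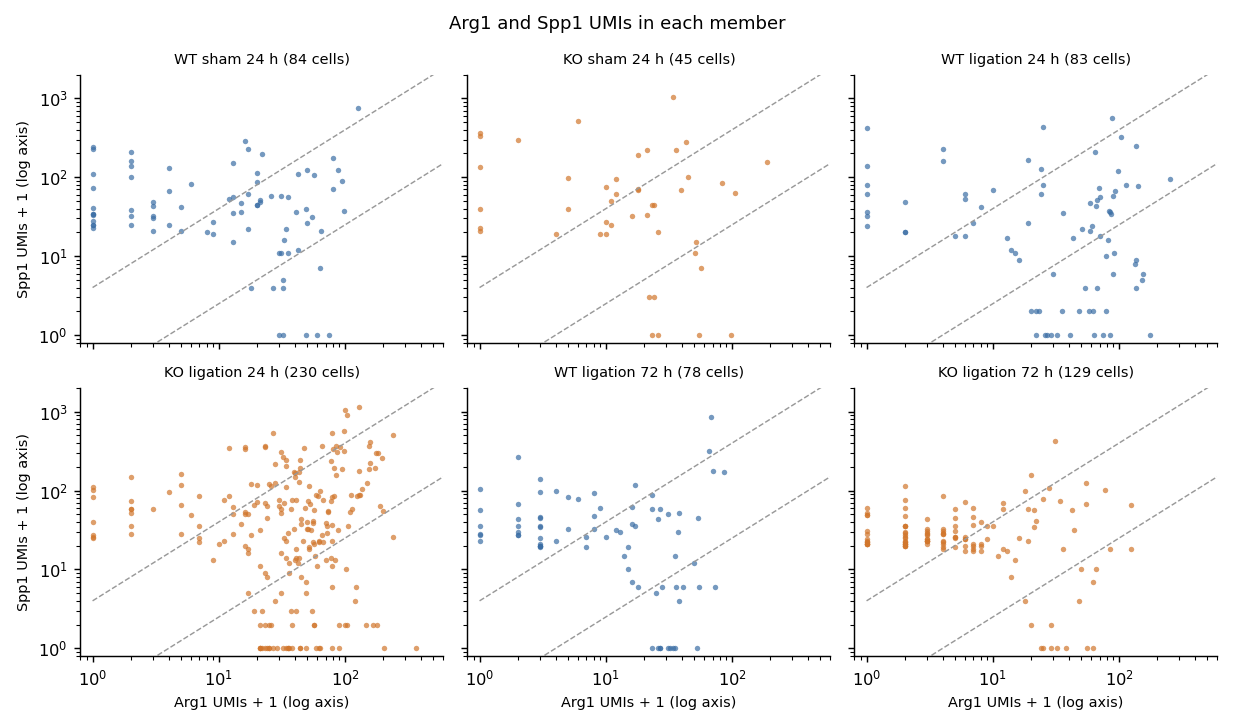
Arg1 against Spp1 UMIs plus 1 in each member (1 point per cell, log axes, 1 panel per library), with dashed lines where 1 plotted value is 4 times the other. Members of the 24 h ligation libraries reach into the Arg1-rich corner (37.3% Arg1-dominant in WT, 27.0% in KO), and those of the 72 h libraries lie mostly on the Spp1 side (50% and 62.8% Spp1-dominant).

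The other 4 genes by which these cells are recognised, F10, Cxcl3, Hilpda and Ccl7, were not used by the rule, but they were named from these data. All 4 were higher in members than in Arg1 Spp1-low cells, which met every other condition, in all 6 libraries. F10 was at 220, 216, 473, 409, 125 and 115 CPM in the members and 60, 68.8, 217, 136, 99.9 and 79.4 CPM in the low cells, in the library order WT sham, KO sham, WT and KO ligation 24 h, WT and KO ligation 72 h. Cxcl3 was at 528, 322, 5100, 4365, 248 and 391 CPM in the members and 26, 50.5, 333, 215, 22.9 and 50.3 CPM in the low cells. Both 24 h ligation libraries stand far above the other 4 for Cxcl3. Hilpda was at 126, 92.2, 736, 699, 84.0 and 212 CPM in the members, and again only the 24 h ligation libraries were above 250 CPM. Ccl7, a ligand of the monocyte receptor CCR2, was at 868, 2215, 2744, 1730, 1126 and 1542 CPM, and its highest and second highest values belonged to WT ligation 24 h and KO sham.

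These markers were not uniform over the members. A Cxcl3 UMI was found in 71.1% of members in WT ligation 24 h and 70.4% in KO ligation 24 h, and in 17.9% to 40.5% in the other 4 libraries. For Hilpda the shares were 75.9% and 80.9%, against 24.4% to 33.3%. Endothelial cells had a Cxcl3 UMI in 0.645% to 9.86% and a Hilpda UMI in 8.13% to 21.8%, at shallower depth. At 3000 UMIs per cell Hilpda was found in 63.9% of WT and 64.6% of KO members at ligation 24 h and in 15.1% and 9.66% of endothelial cells.

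**Figure D3:**
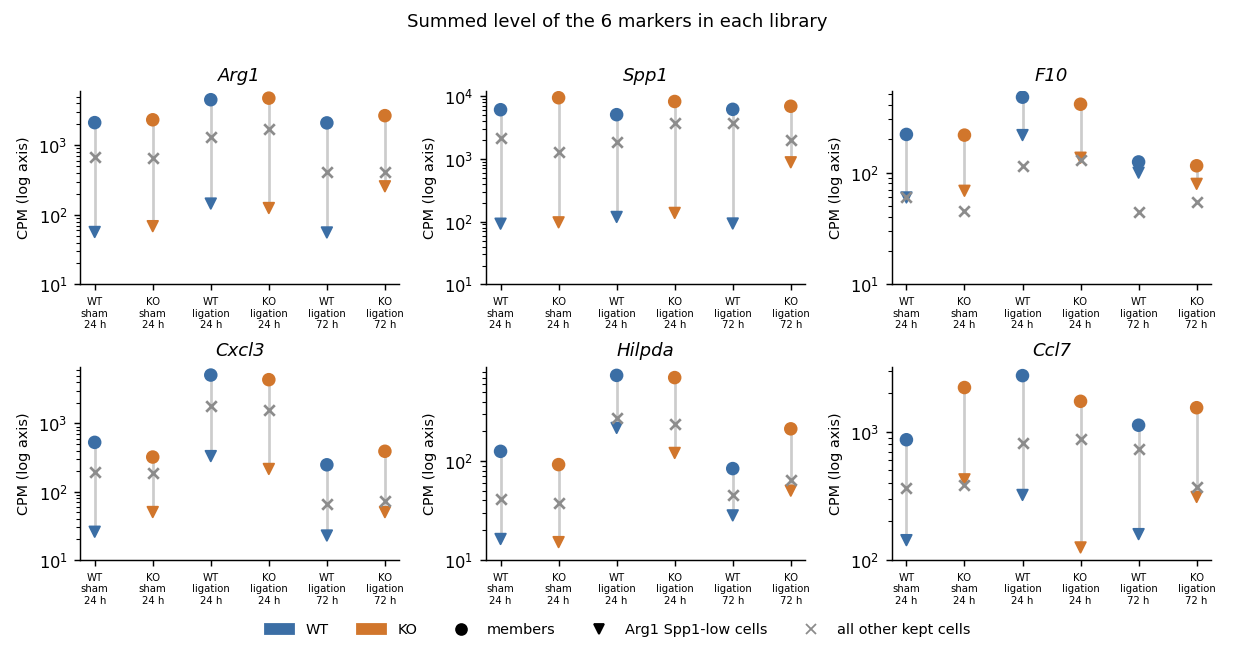
Level of the 6 marker genes (y axis, CPM of summed UMIs, log scale) in members (circles), Arg1 Spp1-low cells (triangles) and all other kept cells (crosses) of the 6 libraries (x axis), WT in blue and KO in orange. Cxcl3 and Hilpda peak in the members of the 24 h ligation libraries (Cxcl3 5100 and 4365 CPM), whereas Spp1 stays between 5028 and 9353 CPM in all 6.

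Members were next set beside the Arg1 Spp1-low cells of their own library, gene by gene, as the log2 ratio of CPM of summed UMIs over genes with 50 or more UMIs on both sides together. KO sham, with 45 members, has levels only. At least 2-fold higher in members were 2.68% of genes measured in WT sham, 3.73% in WT ligation 24 h, 3.48% in KO ligation 24 h, 3.85% in WT ligation 72 h and 2.11% in KO ligation 72 h. At least 2-fold lower were 7.62%, 6.61%, 6.71%, 8.09% and 10.1%. Since the rule cut the cells apart by transcripts, these percentages and the counts that follow describe the cells and carry no test. The median ratio over all genes lay between -0.07 and -0.01. Dendritic cell markers summed to 92.3 to 276 CPM in the low cells and to at most 18.2 CPM in members, so the low cells include dendritic-type cells, and the part of these in the ratios was not tested. The low cells of KO ligation 72 h, with a median of 2015.5 UMIs, were unlike the rest. Spp1 was at 879 CPM and Arg1 at 257 there, against 92.7 to 138 and 55.9 to 145 in the other libraries. Their erythroid markers summed to 1770 CPM and fibroblast markers to 588, against at most 44.0 and 21.2 elsewhere. The part of this in the KO ligation 72 h ratios was not tested.

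Chemokines led the genes that were higher. Cxcl3 exceeded the low cells by a log2 ratio of 3.94 in WT and 4.34 in KO ligation 24 h, and Ccl7 by 3.09 and 3.79. Ccl2, the main monocyte attractant, stood at 8303 and 6994 CPM in those members, against 1417 and 860 in the low cells. Ccl6 and Ccl9, which act through CCR1, differed by 2.17 and 2.15 for Ccl6 and 2.15 and 1.64 for Ccl9. Of the CC chemokines measured 7 of 8 were at least 2-fold higher in WT and 5 of 9 in KO, and 1 and 2 were at least 2-fold lower. The median of the CC list was 2.17 in WT and 1.64 in KO, and 2.78 and 0.74 without cells carrying other markers (3 or more UMIs of another cell type's list). Ccl17, made by dendritic-type cells, was among those: it had 0 UMIs in 83 WT members and 369 in the low cells, and 45 against 924 in KO. Of the CXC chemokines 4 of 6 were higher in WT and 6 of 7 in KO. At 72 h the counts were 6 of 9 (WT) and 3 of 9 (KO) for CC and 5 of 8 and 4 of 9 for CXC chemokines, and in WT sham 5 of 8 and 5 of 6.

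Genes of the hypoxia list were higher in members in all 5 libraries with a ratio. The counts past 2-fold were 9 of 16 in WT sham, 8 of 17 in WT ligation 24 h, 10 of 19 in KO ligation 24 h, 6 of 16 in WT ligation 72 h and 6 of 17 in KO ligation 72 h. No gene of the list was 2-fold lower except 1 in WT ligation 72 h. The medians were 1.03, 0.89, 1.38, 0.86 and 0.82. In WT and KO ligation 24 h the ratios were 1.76 and 2.53 for Hilpda, 1.43 and 2.51 for Vegfa, the angiogenic growth factor, 1.80 and 1.86 for Egln3, 1.40 and 1.68 for Bnip3, a mitophagy receptor, and 1.63 and 1.5 for Ero1l. Ddit4, an inhibitor of mTORC1 that also answers to HIF, went the other way at -0.53 and -0.82. Levels followed the same course over libraries as Hilpda: Ero1l was at 84.4, 62.1, 496, 385, 62.3 and 101 CPM in the members and Egln3 at 16.9, 5.65, 147, 101, 20.3 and 19.7 CPM.

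In WT ligation 24 h the list median did not stay above 0.01 without cells that carried markers of other types, while some values stayed higher in members. When members and low cells with 3 or more UMIs of any other cell type's markers, mostly neutrophil, were left out, 29 of 83 members remained and the hypoxia median was 0.005. Ero1l then had a ratio of -0.18. Hilpda stayed higher in members, at 577 CPM against 248 in the low cells. The summed hypoxia list was also higher, at 3820 CPM in these members and 2605 in these low cells. In the other libraries the median without such cells was 0.998 (WT sham), 1.12 (KO ligation 24 h, 56 members left), 0.62 (WT ligation 72 h) and 1.14 (KO ligation 72 h). Within WT ligation 24 h, the summed hypoxia list stood at 3820 CPM in the 29 members without such markers and 5900 CPM in the 54 with them. In KO ligation 24 h these sums were 5629 and 5985 CPM. This split was made after the data were seen, and whether such RNA comes from a second cell in the droplet, from free RNA or from the macrophage itself was not tested.

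**Figure D4:**
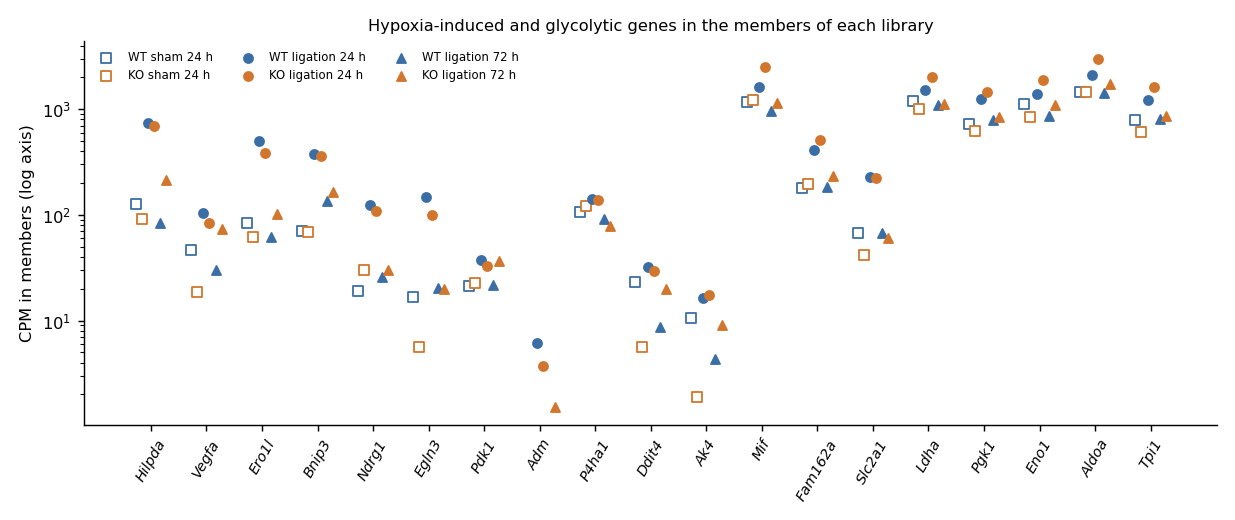
Level of 13 hypoxia and 6 glycolysis genes (x axis) in the members of each library (y axis, CPM of summed UMIs, log scale; a value of 0 is not drawn), with 1 symbol per library. Hilpda, Ero1l, Egln3 and Bnip3 are highest in the members at ligation 24 h, with Ero1l at 496 CPM in WT and 385 CPM in KO against 62.1 to 101 CPM in the other libraries.

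Glycolysis, which HIF also drives, showed the same side. Of 16 enzymes and transporters, 7 (WT sham), 5 (WT ligation 24 h), 11 (KO ligation 24 h), 1 (WT ligation 72 h) and 2 (KO ligation 72 h) were at least 2-fold higher in members and none was 2-fold lower, with medians from 0.74 to 1.05. In WT and KO ligation 24 h Pgk1 differed by 1.38 and 1.36, Tpi1 by 1.19 and 1.32, the glucose transporter Slc2a1 by 0.95 and 1.03, and Ldha, which makes lactate, by 0.85 and 0.97. None of 16 subunits of oxidative phosphorylation passed 2-fold in any of the 5 libraries, and their medians lay between -0.05 and 0.03.

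Genes of blood clotting and provisional matrix formed a further group. Of the coagulation and fibrinolysis genes measured 6 of 7 (WT) and 6 of 9 (KO) were at least 2-fold higher at ligation 24 h, 3 of 6 in WT sham and 2 of 7 and 2 of 10 at 72 h. F7, whose product starts the extrinsic pathway, was at 53.7 CPM in KO ligation 24 h members and 4.95 in low cells, a ratio of 3.44. Thbs1 (thrombospondin 1) differed by 1.79 in WT and 1.05 in KO, and F13a1, the fibrin cross-linker, by 1.23 and 0.89. The WT median of the coagulation list was 1.55, or 0.67 without cells carrying other markers, and Thbs1 then differed by 0.85. Fn1 (fibronectin) was at 2875 and 2868 CPM in the members, and its ratios were 1.85 and 1.80. In all libraries the members' Fn1 lay between 2487 and 4660 CPM, and the highest value was in WT sham. Ecm1 (extracellular matrix protein 1) differed by 2.35 and 1.83. Among 8 osteopontin receptor genes none was 2-fold higher in members of these 5 libraries: Cd44 had ratios of 0.45 and -0.14 at ligation 24 h, and Itga4 was lower at -2.11 and -2.34.

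Some genes of heme and iron handling and 2 lysosomal proteases were higher too, while most genes of both lists lay within 2-fold. Hmox1 (heme oxygenase 1) had ratios of 2.33 in WT and 1.69 in KO ligation 24 h, Mt1 (metallothionein 1) of 1.54 and 1.91, and Fth1 (ferritin heavy chain) of 0.95 and 1.54. The KO ratio of Hmox1 was 0.72 without cells carrying other markers. Of the redox, heme and iron genes measured 3 of 11 and 5 of 12 passed 2-fold. Hmox1 in members did not follow hypoxia genes over time, at 538, 489, 2130, 1831, 2424 and 1818 CPM over the 6 libraries, so it was as high at 72 h as at 24 h. Ctsl differed by 2.32 and 2.44 and Ctsd by 1.77 and 1.79, while 2 of 12 (WT) and 3 of 12 (KO) lysosome genes passed.

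Of the other genes that use arginine, 2 stood out at 24 h after ligation. Nos2 (inducible nitric oxide synthase) was at 70.0 CPM in WT and 36.8 in KO ligation 24 h members and at most 3.03 CPM in the other 4 libraries, and Slc7a2, the cationic amino acid transporter that brings arginine in, was at 83.4 and 47.4 CPM, against at most 24.3. Both were higher than in low cells, by 2.45 and 4.74 for Nos2 and 3.9 and 3.73 for Slc7a2. They were thinly spread: 18 of 83 WT and 25 of 230 KO members had a Nos2 UMI. Ass1, Odc1 and the other genes of the arginine and polyamine list lay within 2-fold in both libraries.

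MHC class II genes, which present antigen, were the main group that was lower. All 7 measured were at least 2-fold lower in members in each of the 5 libraries, with medians of -3.53 (WT sham), -3.21 (WT ligation 24 h), -2.48 (KO ligation 24 h), -1.98 (WT ligation 72 h) and -2.09 (KO ligation 72 h). H2-Aa was at 117 CPM in WT and 452 in KO ligation 24 h members, against 2065 and 2527 in the low cells. The dendritic-type transcripts of the low cells stand beside this: Cd209a had 0 UMIs in WT ligation 24 h members and its log2 ratio was at most -6.32 (0 set to 3 counts over the group). Mature macrophage genes had medians of -0.64, -0.56 and -0.90 in the 24 h libraries, 0.80 in WT and -0.03 in KO at 72 h. Monocyte genes lay between -0.55 and -0.12 in all 5, and without cells carrying other markers the WT ligation 24 h value was 0.49. Of the interferon-induced genes measured 7 of 14 were 2-fold lower in KO ligation 24 h and 1 or 2 in the other libraries, a group near to the rule, which capped 4 such genes.

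**Figure D5:**
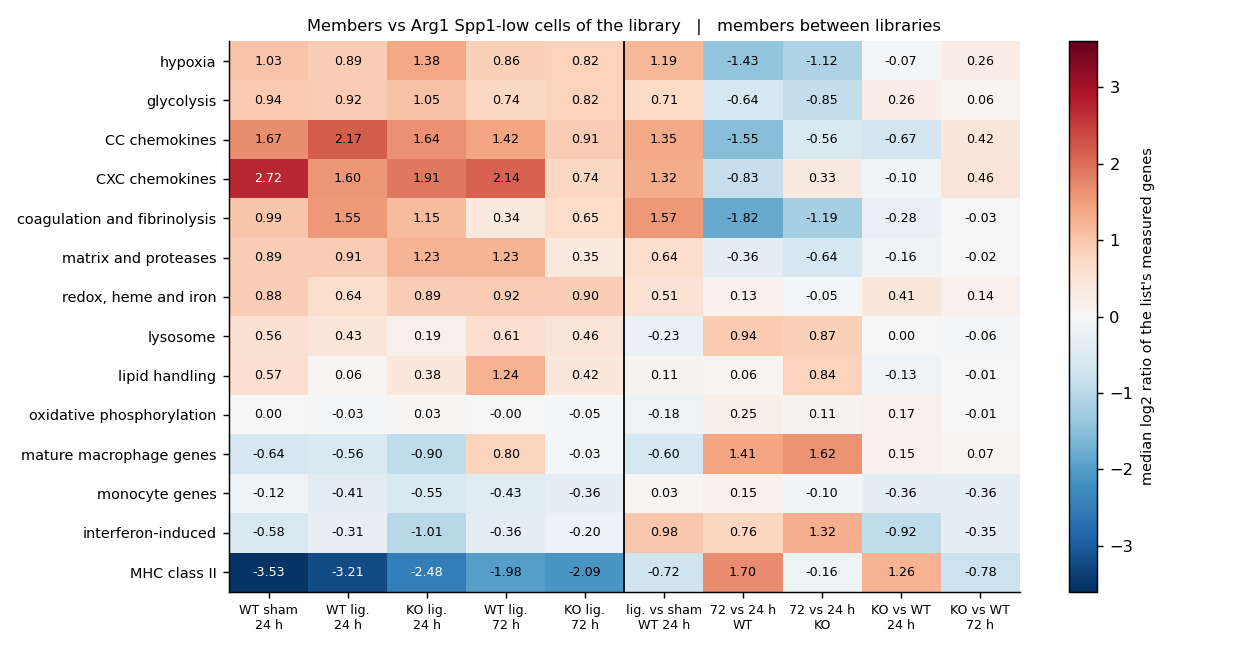
Median log2 ratio of the measured genes of 14 lists (rows) for members against Arg1 Spp1-low cells in 5 libraries (columns left of the line) and for 5 contrasts between members of different libraries (right of the line), in red where above 0 and in blue where below. Against the low cells the hypoxia row is above 0 in all 5 columns (0.82 to 1.38) and the MHC class II row below (-3.53 to -1.98).

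Against the Trem2 Gpnmb and the Ccl24 Saa3 Ednrb macrophages at ligation 24 h, hypoxia genes and mature macrophage genes differed in opposite directions. Neither group had a minimum of Arg1 and Spp1. Of the Trem2 Gpnmb cells 77 of 113 (WT) and 363 of 467 (KO) held 20 or more such UMIs. For the Ccl24 Saa3 Ednrb cells the numbers were 255 of 376 and 558 of 811. Members were capped on the resident genes and these groups were not, and the part of this in the mature macrophage ratios was not tested. No ratio against either group was repeated without cells carrying other markers. Such cells were 54 of 83 WT and 174 of 230 KO members. Beside the Trem2 Gpnmb macrophages, 2.19% (WT) and 1.81% (KO) of genes were at least 2-fold higher in members and 5.07% and 4.53% lower. Of the hypoxia list 8 of 16 and 11 of 19 were higher and none 2-fold lower, with medians of 1.01 and 1.29. Egln3 differed by 2.93 and 2.45, Ero1l by 2.18 and 1.95 and Hilpda by 1.06 and 1.54. Of 12 mature macrophage genes 10 were lower in both genotypes, with medians of -1.61 and -1.50, among them C1qa (-2.02 and -2.0) and Mrc1 (-2.01 and -1.37). Ccl7, one of the members' markers, was nearly level with these cells, at 0.47 and -0.36, and Fn1 at -0.10 and 0.21.

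Beside the Ccl24 Saa3 Ednrb macrophages, 1.04% (WT) and 1.31% (KO) of genes were higher and 6.85% and 4.67% lower. Hypoxia genes again lay above, 6 of 19 and 8 of 19 past 2-fold with medians of 0.63 and 0.78, and mature macrophage genes below, 6 and 7 of 12 with medians of -1.03 and -1.11. Cxcl3 differed by 1.13 and 1.26 and F10 by 0.80 and 0.60. Ccl7 had ratios of 0.37 and -0.10, within 2-fold of both groups. MHC class II differed between genotypes here: 4 of 7 were higher in KO members (median 1.68) and none of 6 in WT members (0.01). These ratios, too, were not repeated without cells carrying other markers.

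The effect of ligation was read in WT members only, 83 cells at ligation 24 h against 84 in sham, a contrast chosen after the data were seen. At least 2-fold higher after ligation were 4.59% of 4185 genes and at least 2-fold lower 3.23%. Hypoxia genes (9 of 16 higher, none lower, median 1.19), coagulation genes (7 of 8, median 1.57) and CC chemokines (6 of 7, median 1.35) were higher. Cxcl3 differed by 3.27, Hilpda by 2.55, Ero1l by 2.56, Thbs1 by 2.15, Plaur, the urokinase receptor, by 1.92, and Arg1 by 1.09, while Spp1 differed by -0.26. The low cells differed the same way, with medians of 1.02 for hypoxia and 1.29 for coagulation. Without cells carrying other markers the members' hypoxia median was 0.32 and Ero1l differed by 0.98.

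At 72 h after ligation members had lower levels of hypoxia and coagulation genes than at 24 h and higher levels of mature macrophage genes in both genotypes, while chemokines as a group were lower in WT and mixed in KO. In WT 4.93% of genes were at least 2-fold higher at 72 h and 7.48% lower, and in KO 5.2% and 5.16%. Of the hypoxia list 9 of 15 (WT) and 11 of 19 (KO) were lower and none higher, with medians of -1.43 and -1.12. Hilpda differed by -3.13 and -1.72, Ero1l by -2.99 and -1.92, and Egln3 by -2.86 and -2.35. Without cells carrying other markers the list medians were -0.73 and -0.87. The low cells had medians of -1.04 and -0.63. Cxcl3 differed by -4.36 in WT and -3.48 in KO and F10 by -1.92 and -1.83. Coagulation genes were lower, 6 of 8 and 4 of 8. Their medians were -1.82 and -1.19, or -1.29 and -0.72 without cells carrying other markers. CC chemokines were lower in 6 of 7 in WT (median -1.55) and 3 of 8 in KO, where 1 was higher (median -0.56). CXC chemokines were lower in 2 of 5 in WT, where 1 was higher (median -0.83), and lower in 3 of 7 in KO, where 1 was higher. The KO median of the CXC list was 0.33, and it lay between -1.21 and -0.391 under 5 alternatives, so its direction rests on the setting.

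In the other direction, 7 of 10 mature macrophage genes were higher at 72 h in each genotype, with medians of 1.41 and 1.62, against 0.16 and 0.68 in the low cells. The KO median was 0.67 without cells carrying other markers. Ms4a7, a membrane protein of mature macrophages, differed by 3.77 and 4.11, C1qa by 1.57 and 1.68 and Selenop by 2.23 and 1.97. Ms4a7 UMIs were found in 22.9% of WT and 14.8% of KO members at 24 h and in 62.8% and 69.0% at 72 h. Lysosome genes were higher in 5 of 12 in both, Lgmn by 1.63 and 1.52 and Ctsb by 1.55 and 1.85. Interferon-induced genes were higher in 4 of 11 (WT) and 10 of 12 (KO), and Irf7 differed by 2.18 and 2.01. Summed, this list stood in KO at 1913 CPM at 24 h and 3484 at 72 h in members, and at 4858 and 4937 in low cells. In WT the sums were 2370 and 4928 CPM in members and 4345 and 6433 in low cells. The rule's upper limits on interferon UMIs, resident genes and Trem2 and Gpnmb are all looser in the shallow KO ligation 72 h library. Their part in the KO ratios of the interferon-induced and the mature macrophage genes was not tested. MHC class II was higher in 5 of 6 in WT (median 1.70) and in none of 6 in KO (-0.16). Arg1 itself differed by -1.11 and -0.84 and Spp1 by 0.28 and -0.25. Of 3724 genes measured in both genotypes, 183 (WT) and 170 (KO) were 2-fold higher at 72 h, and 76 were so in both, 41.5% of the WT and 44.7% of the KO genes. For lower genes the numbers were 276 and 175, and 116 in both, 42% and 66.3%.

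The genotype contrast at ligation 24 h, 230 KO against 83 WT members, is given next. At least 2-fold higher in KO were 1.67% of 5613 genes and at least 2-fold lower 2.58%. Of the genes past 2-fold 39.3% were thus higher, or 52.3% when ratios were taken relative to the median gene (-0.06). Hypoxia genes had a median of -0.07, and Hilpda at 699 (KO) and 736 (WT) CPM differed by -0.07. Arg1 differed by 0.07 and Spp1 by 0.70. MHC class II was higher in KO, 4 of 6 genes with a median of 1.26, against 0.29 in the low cells. H2-Aa differed by 1.95, Cd74 by 1.20, H2-Eb1 by 1.33 and H2-Ab1 by 1.32. A H2-Aa UMI was present in 50 of 230 KO and 11 of 83 WT members, so a minority of cells carried the transcript in both. Among chemokines Ccl4 differed by -2.25 and Ccl3 by -1.5. With cells carrying other markers left out Ccl4 differed by -0.81, less than 2-fold, and Ccl3 by -1.65, and 1 WT cell held 29.7% of the Ccl4 UMIs of its library's members. Thbs1 differed by -1.17, or -0.37 without such cells. Interferon-induced genes were 2-fold lower in 6 of 12 (median -0.92), but -0.11 without cells carrying other markers. Without those cells the hypoxia median was 0.63 in favour of KO. Retnla, a marker of alternative activation, had 585 UMIs in KO and 0 in WT, but 4 KO cells held them and 1 cell held 81.7%. Mmp13 was lower by 6.26, and 1 WT cell held 92.1% of its WT UMIs.

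At ligation 72 h, 129 KO against 78 WT members, 0.874% of 3203 genes were at least 2-fold higher and 0.812% lower. The KO library was the shallow one, and genotype and library cannot be told apart. Hilpda was higher in KO by 1.34 (0.88 to 1.80 counting interval), at 212 against 84.0 CPM. Hypoxia genes had a median of 0.26, with 2 of 11 past 2-fold. CC chemokines had a median of 0.42, with 2 of 8 higher, among them Ccl4 (1.44) and Ccl12 (1.03). MHC class II was lower in KO (2 of 6, median -0.78), and the low cells had -0.79. Irf7 differed by -1.42 and Ly6c2, a monocyte surface marker, by -1.12. Ly6a was lower by 2.05, and 1 WT cell held 37.5% of its WT UMIs. Irf7 and Ly6a differed by -0.68 and -0.80 without cells carrying other markers. The direction of MHC class II and CC chemokines was thus opposite at the 2 times. These differences between times were not tested.

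Members rich in Arg1 and those rich in Spp1 were compared within KO ligation 24 h, the library with most members, a contrast chosen after the data were seen. The 62 Arg1-dominant cells were set against the 58 Spp1-dominant ones, and 2.95% of genes were at least 2-fold higher and 1.44% lower. Hypoxia genes were higher in the Arg1-dominant cells, 9 of 14 with a median of 1.13 and none 2-fold lower. Hilpda was at 1041 against 315 CPM, a ratio of 1.73 (1.49 to 1.96), and Vegfa differed by 1.86, Egln3 by 1.88, Bnip3 by 1.38 and Ero1l by 1.37. MHC class II was also higher, 5 of 6 with a median of 1.30, and Cd74 differed by 1.74. Ccl7 (-0.67), Apoe (-0.63) and Chil3 (-0.86) were on the Spp1-dominant side, each by less than 2-fold. Within this library the genes of the hypoxia list were thus higher in the Arg1-dominant than in the Spp1-dominant members. The Spp1-dominant cells still held Arg1 at 2395 CPM, against 5534 in the Arg1-dominant ones. The contrast was not repeated without cells carrying other markers, which were 174 of the 230 members of this library.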

How the data were processed

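The deposited files hold whole-number UMI counts per gene and cell for 32285 genes, which the authors obtained from Cell Ranger (version 6.0.0), as the file headers and the submitters' processing notes state, on genome build mm10, per those notes. The annotation release is not given in the sources used here. Deposited UMI totals per library were 20995280 to 45649061. No doublet caller was run, and cells with 3 or more UMIs of another cell type's markers were left out as an alternative instead.

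Cells were chosen by the rule given above, with Python 3.11.15, numpy 2.4.6, scipy 1.17.1 and pandas 2.3.3. UMIs were summed over the cells of a class in a library and divided by the sum of all their UMIs (CPM). A log2 ratio compares 2 such sums for genes with 50 or more UMIs on both sides together, with an exact conditional Poisson 95% interval, and a side at 0 set to 3 counts. A gene was called at 2-fold. Classes under 50 cells gave no ratios. Shares have exact (Clopper-Pearson) intervals and differences of shares Newcombe intervals from Wilson limits, all of which cover counting error only. Each group has 1 library of 4 pooled mice, so there is no test and no p-value. The calculation was tested on simulated data.

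The cells, their markers and the 23 gene lists were chosen with earlier results of these data known. Named were the 6 markers, the genes of the rule, any gene of the lists and, beyond these, the 15 highest and 10 lowest for members against Arg1 Spp1-low cells and the 10 highest and 10 lowest for the contrasts of genotype and time, at 100 or more CPM on the higher side and at least 0.25 of the level in all other kept cells. Promoter windows and matched genes come from RefSeq tables on GRCm38.p6 and gene positions from GENCODE M21.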

Additional observations from a re-analysis of the deposited data

Results flagged for a closer look

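The share of Arg1 Spp1 macrophages among kept cells differed between genotypes in opposite directions by condition. KO was below WT in sham, by -0.804 points, and above it after ligation, by 0.823 points at 24 h and 1.08 points at 72 h. The difference between these effects was not tested. The 72 h value rests on a KO library whose members had a median of 3531 UMIs, and among gated cells thinned to 3000 UMIs KO was below WT there (9.77% against 11.2%). Among gated cells of 3000 or more UMIs without thinning KO was above WT (73 of 1141 against 70 of 2399).

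MHC class II genes had a median log2 ratio of KO to WT members of 1.26 at ligation 24 h and -0.782 at 72 h, over 6 genes each. CC chemokines had medians of -0.665 at 24 h, over 7 genes, and 0.416 at 72 h, over 8 genes. Both pairs of opposite directions were not tested. Without cells carrying other cell types' markers the medians were 1.24 and -0.97 for MHC class II, and -1.04 and 0.94 for CC chemokines. A H2-Aa UMI was found in 50 of 230 KO and 11 of 83 WT members at 24 h, and 1 WT member held 22.8% of the WT UMIs of H2-Aa.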

How the results depend on the processing

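No paired analysis was possible because each group has 1 library, and for the same reason no group can lose a library. The alternatives below were planned except the restriction to cells of 3000 or more UMIs without thinning, which was chosen after seeing the data. All values are given in the order WT sham, KO sham, WT ligation 24 h, KO ligation 24 h, WT ligation 72 h, KO ligation 72 h where libraries are listed. Where a cause is not named, the cause was not tested.

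The share of gated macrophages moved with the minimum of Arg1 and Spp1 UMIs. At 40 UMIs it was 4.82%, 3.78%, 8.63%, 11.1%, 1.63% and 1.77%. At 10 UMIs it was 15% (WT) and 15.9% (KO) at ligation 24 h and 4.59% and 13.5% at 72 h. With a minimum of 0.2% of the cell's UMIs in place of a number, KO ligation 72 h had 25.8%. Thinned to 3000 UMIs the shares were 13.8%, 11.1%, 16.1%, 22.5%, 11.2% and 9.77%. In cells of 3000 or more UMIs, not thinned, KO ligation 72 h had 6.40% (73 of 1141), and in WT ligation 72 h 70 of 2399 were members. Without cells carrying other markers WT sham had 9.13% and KO ligation 24 h 18.5%.

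Counts of genes past 2-fold moved by over 1.5 times under several settings, and fewer genes are measured by construction at a minimum of 200 UMIs, in thinned cells and with fewer cells. Members against low cells gave 234 (WT sham), 168 (WT ligation 24 h), 313 (KO 24 h), 316 (WT 72 h) and 221 (KO 72 h) at 200 UMIs. Thinned, they gave 283 (WT 24 h), 420 (KO 24 h) and 383 (KO 72 h), and without cells carrying other markers 453 (WT sham), 255 (WT 24 h), 284 (KO 24 h) and 629 (KO 72 h), against main counts of 716, 546, 729, 933 and 976. KO against WT at 24 h gave 31 at 200 UMIs, 100 thinned and 77 without such cells, against 239. At 72 h it gave 10 at 200 UMIs, 21 thinned and 126 with the mean of the per-cell CPM, against 54. The 72 h against 24 h contrast gave 138, 191 and 204 in WT and 166, 280 and 218 in KO for the same 3 settings (200 UMIs, thinned, without such cells), and 297 in WT at 40 UMIs of Arg1 and Spp1, against 463 and 562. Ligation against sham in WT gave 76, 130 and 164, against 327. The split of these genes moved by over 10 points in some. For members against low cells in KO ligation 72 h 17.2% were higher (168 higher, 808 lower), but 34.7% thinned (133 and 250) and 30.3% in cells of 3000 or more UMIs (202 and 465), and in WT ligation 24 h 36.1%, but 47.6% at 200 UMIs. For ligation against sham 58.7% were higher (192 and 135), but 86.8% at 200 UMIs (66 and 10) and 74.6% thinned (97 and 33). For 72 h against 24 h in KO 50.2% were higher, but 38.0% at 200 UMIs, 35% thinned and 38.8% at 40 UMIs of Arg1 and Spp1. For KO against WT 39.3% were higher at 24 h, but 52.3% relative to the median gene, and 51.9% at 72 h, but 40% at 200 UMIs, 39.2% at 40 UMIs of Arg1 and Spp1 and 38.6% without cells carrying other markers.

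Without cells carrying other markers the hypoxia median was 0.00494 for members against low cells in WT ligation 24 h, 0.628 for KO against WT at 24 h, -0.733 for 72 h against 24 h in WT and 0.324 for ligation against sham. The last was 1.78 at 200 UMIs and 1.88 thinned.

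Of 1418 other list medians 14 changed direction. For members against low cells in WT ligation 24 h, monocyte genes had 0.00575 at 200 UMIs, 0.114 thinned and 0.487 without cells carrying other markers, and myeloid danger receptors -0.143 without them. In KO ligation 24 h alternative activation had -0.00798 without them. For KO against WT, redox, heme and iron genes had -0.0239 without them at 24 h, and monocyte genes at 72 h 0.0108 at 40 UMIs and 0.167 without them. For 72 h against 24 h in KO, CXC chemokines had -0.653 with per-cell means, -0.391 at 200 UMIs, -0.846 thinned, -1.21 without such cells and -0.557 in cells of 3000 or more UMIs, so their direction rests on the setting, and alternative activation had 0.247 without such cells.

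Of 1509 single-gene ratios 28 changed direction. Without cells carrying other markers these were, against low cells, Ero1l (-0.18) and Ptgs2 (-0.69) in WT ligation 24 h, Retnla (-4.44) and Ptgs2 (-0.19) in KO ligation 24 h, Ly6a (-0.34) in WT ligation 72 h and Ccl4 (-0.052) in WT sham. Between libraries they were F10 (0.046), Ero1l (0.74) and Egln3 (0.11) for KO against WT at 24 h, Ctsl (0.19) and Thbs1 (0.0072) at 72 h, and Hmox1 (-0.24) in WT and Ccl7 (0.11) and H2-Eb1 (-0.39) in KO for 72 h against 24 h. At 40 UMIs they were Thbs1 (0.087) for KO against WT at 72 h, Ctsl (0.033) and Hmox1 (-0.11) in WT and Ccl7 (0.17), Fn1 (0.078), Thbs1 (0.012) and H2-Eb1 (-0.76) in KO for 72 h against 24 h. With per-cell means they were Ccl4 (-0.22) in KO ligation 72 h and Irf7 (0.18) in WT sham against low cells, Ero1l (-0.016) and Hmox1 (0.11) for KO against WT at 72 h, and H2-Ab1 (0.13) for 72 h against 24 h in KO. Thinned they were Hmox1 (-0.017) in WT and H2-Ab1 (0.12) in KO for 72 h against 24 h. Depth limits KO ligation 72 h most.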

Other observations

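Lipid handling and innate sensing were described in no comparison above. Of 15 lipid handling genes measured, 6 (WT sham), 3 (WT ligation 24 h), 5 (KO ligation 24 h), 8 (WT ligation 72 h) and 4 (KO ligation 72 h) were at least 2-fold higher in members than in Arg1 Spp1-low cells, with medians of 0.57, 0.06, 0.38, 1.24 and 0.42. Myeloid danger receptors, which sense damaged tissue and microbes, had medians of 0.87, 0.37, 0.53, 0.52 and 0.59 in the same order. Between members of different libraries they were lower at 72 h than at 24 h, 6 of 9 genes in WT (median -1.29) and 5 of 11 in KO (-0.90). Cell cycle genes were at least 2-fold lower in members than in low cells for 6 of 10 genes in WT sham, 5 of 10 in WT ligation 72 h and 11 of 14 in KO ligation 72 h. At ligation 24 h only 2 of the 14 reached 50 UMIs over both sides in each genotype.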
